A study of Homo sapiens with 12 samples.

Results

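The immediate early transcription factors described here are 10 genes taken by name: FOS, FOSL1 and FOSL2 of the FOS family, JUN, JUNB and JUND of the JUN family, the zinc finger genes EGR1, KLF4 and KLF6, and MYC. All 10 were measured, by 21 of the 19064 probe sets that match a single gene, and they stand among 11963 genes in all. RNA came from RCC4, an established human line of clear cell renal carcinoma without functional VHL, and was hybridised to 12 one-colour 3′ expression arrays. The 4 groups, of 3 arrays each, were siRNA against WWTR1 with erastin (siTAZ erastin), the same siRNA with DMSO (siTAZ vehicle), non-targeting siRNA with erastin (siNT erastin) and non-targeting siRNA with DMSO (siNT vehicle). Every group had 2 days of siRNA and then 7 hours of either 1 µM erastin or its DMSO vehicle, and the labels give growth in medium with 10% serum. WWTR1 encodes TAZ, a coactivator of the Hippo pathway, and erastin blocks the cystine importer whose transport subunit is SLC7A11. All values come from a single cell line, and the siRNA sequences and how many siRNAs were used are not stated. The submitters call the arrays biological triplicates, and the labels do not say how the cultures were separated.

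Immediate early genes are transcribed within minutes of a growth factor, serum or stress signal, from factors already present in the cell, and most of their transcripts are short-lived. FOS and JUN proteins pair through leucine zippers into the AP-1 factors, which bind the TGANTCA element, where N is any base. TAZ and its paralogue YAP act through TEAD proteins, which often bind near AP-1 at shared enhancers. No serum or growth factor stimulation is named in the labels.

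The proximal promoters of the members are shown first because serum-responsive genes such as EGR1 and FOS are known for CArG boxes, which SRF binds, and cAMP response elements. Promoters of 8 members were taken from the RefSeq promoter table (GRCh38.p14). Those of FOSL1 and MYC were not searched, so nothing is said of their elements. Both strands of the 250 bases before each start were searched for 7 elements. The first were the CArG box and the AP-1 element. The full cAMP response element was TGACGTCA, and TGACG is its core, so matches of these 2 overlap. The GC box was GGGCGG. The letters for TEAD were GGAATG, and those for the E-box were CACGTG. The EGR1 stretch lies at chr5:138465329-138465428 on the plus strand, with CArG boxes and cores in capitals, the cores reading CGTCA since they match on the other strand. The JUND stretch lies at chr19:18281803-18281842 on the minus strand, with the full element in capitals. The JUN stretch lies at chr1:58784148-58784187 on the minus strand, with the TGACG core and both GC boxes in capitals, the core running into the first box and the second reading CCGCCC on this strand. The FOS stretch lies at chr14:75278738-75278807 on the plus strand, with the TGACG core in capitals.
EGR1: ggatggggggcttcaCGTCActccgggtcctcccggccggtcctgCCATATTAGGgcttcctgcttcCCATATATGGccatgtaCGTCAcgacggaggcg
JUND: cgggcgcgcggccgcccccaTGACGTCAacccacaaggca
JUN: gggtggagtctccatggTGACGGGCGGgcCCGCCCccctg
FOS: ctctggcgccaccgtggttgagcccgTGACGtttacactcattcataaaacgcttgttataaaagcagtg

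EGR1 was the only one of the 8 with a CArG box in this window, and it held 2, against 1.14% of 27305 promoters of the same length with any. JUND was the only one with the full cAMP response element, against 1.77% of promoters. The TGACG core was present in 7 of the 8, all but KLF6, against 21.7% of promoters. A GC box was present in 6 of the 8, against 42.3%, and the E-box in KLF4 and KLF6, against 6.49%. No match to TGANTCA or GGAATG was found in any of the 8 windows, against 6.60% and 11.9% of promoters. The serum response element for which FOS is known lies farther upstream than this window. These are matches of letters and say nothing about binding in these cells.

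Signals are RMA log2 values as deposited. Each gene is represented by its brightest probe set by mean over all 12 arrays unless another is named. Rose and fell are used where the Benjamini-Hochberg adjusted p of limma, over all 11963 genes, was under 0.05. A fold change on the log2 scale is given ± the standard error of that fit, with 3 arrays per group. In bulk RNA, fewer cells expressing a gene and less RNA per cell cannot be told apart. The silenced gene was low in both siTAZ groups: WWTR1 averaged 9.25 ± 0.14 on siTAZ arrays and 12.28 ± 0.06 on siNT arrays (SD, n = 6), with a two-sided exact permutation p of 0.00216, the smallest that 6 against 6 can give. Arrays of a group correlated at 0.996 to 0.999 over all genes, and siTAZ with siNT arrays at 0.991 to 0.994. Of the renal markers, 8 were measured and their gene means were 8.20 for PAX2 to 13.5 for VIM. With siTAZ 2 of the 8 rose and 2 fell in vehicle, and 2 rose and 3 fell under erastin. Of all genes 28.6% and 28.2% were called. Groups did not overlap for 7 of the 8 in vehicle and 8 under erastin, beside 43.8% and 38.8% of all genes. The markers' median level was 9.51 on siTAZ erastin and 9.50 on siTAZ vehicle arrays, against 10.51 on siNT erastin and 10.55 on siNT vehicle arrays. The median of the 8 genes' own siTAZ changes was −0.01 in vehicle and −0.03 under erastin, where rises and falls offset each other. The part of the marker changes in the members' changes was not tested. Medians of leukocyte, endothelial, erythroid and fibroblast markers were 5.17, 4.34, 4.79 and 4.50, with PTPRC at 3.77 and PECAM1 at 4.34. The highest of each list were ITGB2 at 7.06, TEK at 5.94, HBB at 6.43 and COL1A1 at 7.43. Only the leukocyte integrin gene ITGB2 changed with siTAZ among these markers. RNA quality was read from the actin and GAPDH control probe sets, as the 3′ signal minus the 5′ signal. For actin under erastin this was 3.25 ± 0.33 on siTAZ and 2.26 ± 0.69 on siNT arrays. In vehicle it was 2.65 ± 0.04 on siTAZ and 2.68 ± 0.28 on siNT arrays (SD, n = 3 each). Replicate 3 of siNT erastin, at 1.49, was the lowest of its group. For GAPDH under erastin it was 0.20 ± 0.06 on siTAZ and 0.15 ± 0.08 on siNT arrays, and in vehicle 0.20 ± 0.07 and 0.18 ± 0.07. The actin value thus moved with siTAZ under erastin, and the GAPDH value showed no such move beyond its spread. The members' values with the actin value as a covariate are given below.

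The first question is how silencing of WWTR1 changes the members in vehicle and under erastin. With siTAZ in vehicle 4 of the 10 rose and 3 fell, and 28.6% of all genes were called, 14.7% upward and 13.9% downward. Under erastin 3 rose and 4 fell, and 28.2% of all genes were called, 15.6% upward and 12.6% downward. With siTAZ under either treatment FOSL1 and KLF4 fell and FOSL2, JUND and EGR1 rose. Of the other JUN family members, JUN fell in vehicle and JUNB fell under erastin. The median of the 10 was −0.02 in vehicle and −0.10 under erastin, against −0.01 and 0.01 over all genes. Groups did not overlap for 7 of the 10 in vehicle and 8 of the 10 under erastin, where 43.8% and 38.8% of all genes had groups that did not overlap.

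**Figure D1:**
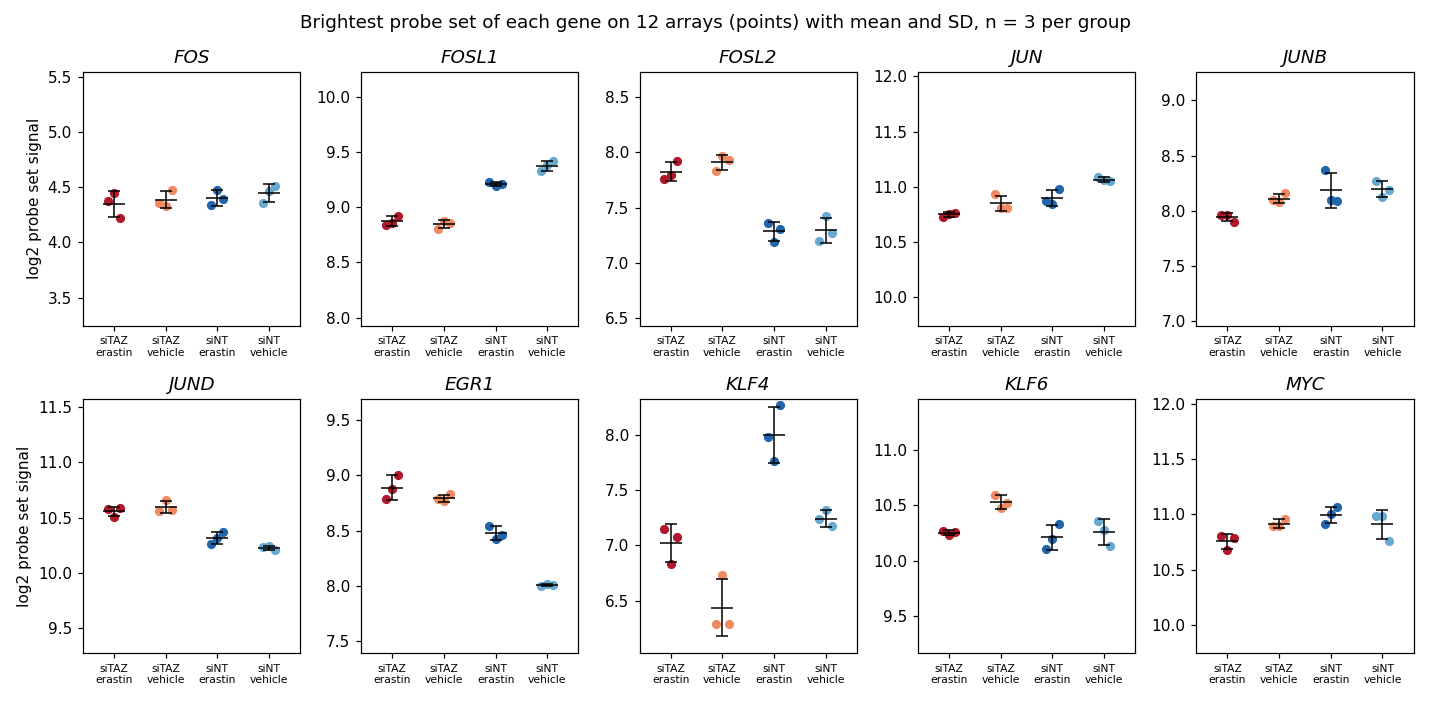
Log2 probe set signal (y axis, the same span in every panel) of the 10 genes on the 12 arrays, by group (x axis); points are arrays and bars the mean with SD (n = 3). KLF4 spans the widest range of group means, 1.57, EGR1 the next, 0.88, and FOS the narrowest, 0.10.

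FOSL1 encodes FRA-1, an AP-1 subunit without the transactivation domain of FOS that is often high in mesenchymal and invasive carcinoma cells. Its single probe set (204420_at) read 8.81, 8.87 and 8.86 on siTAZ vehicle arrays, against 9.33, 9.38 and 9.42 on siNT vehicle arrays. On siTAZ erastin arrays it read 8.84, 8.86 and 8.92, against 9.23, 9.19 and 9.21 on siNT erastin arrays. All 6 siTAZ arrays lay below all 6 siNT arrays. FOSL1 fell by 0.53 ± 0.05 in vehicle (adjusted p = 6.44e-06), 1.44-fold, and by 0.33 ± 0.05 under erastin (adjusted p = 0.000257), 1.26-fold. Of the group means siNT vehicle was the highest, then siNT erastin, and the siTAZ groups overlapped each other.

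FOSL2 encodes FRA-2, the nearest relative of FRA-1, and its brightest probe set (218880_at) moved the other way. On siTAZ vehicle arrays it read 7.83, 7.97 and 7.93, against 7.20, 7.42 and 7.27 on siNT vehicle arrays. Under erastin the siTAZ values were 7.76, 7.79 and 7.93 and the siNT values 7.36, 7.19 and 7.30. The siTAZ arrays were again separate from all siNT arrays, here above them. The rise was 0.61 ± 0.07 in vehicle (adjusted p = 5.13e-05) and 0.54 ± 0.07 under erastin (adjusted p = 0.000149). It rests on 1 of 3 probe sets. The second, with a mean only slightly lower, gave 0.02 ± 0.06 and −0.05 ± 0.06, and the third gave 0.04 ± 0.13 and −0.17 ± 0.13. With the mean of the 3 probe sets the change was 0.23 in vehicle, still called, and 0.11 under erastin, which was not called (adjusted p = 0.236).

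FOS, the founding member of its family and the best known immediate early gene, had a low signal (209189_at), near the median levels of the markers of other cell types. It read 4.37, 4.45 and 4.22 on siTAZ erastin arrays and 4.36, 4.33 and 4.48 on siTAZ vehicle arrays. On siNT erastin arrays it read 4.34, 4.48 and 4.39, and on siNT vehicle arrays 4.35, 4.46 and 4.51. All 4 groups overlapped. The 95% interval of the siTAZ difference was −0.21 to 0.10 in vehicle and −0.21 to 0.10 under erastin, so a change beyond that size was not seen on this probe set. At so low a signal a difference would be compressed.

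JUN encodes an AP-1 subunit that can pair with every FOS family member, and 4 probe sets measured it. The brightest (201464_x_at) read 10.93, 10.81 and 10.81 on siTAZ vehicle arrays, against 11.09, 11.06 and 11.05 on siNT vehicle arrays. Under erastin the siTAZ values were 10.73, 10.75 and 10.77 and the siNT values 10.87, 10.85 and 10.98. The siTAZ arrays lay below the siNT arrays with either treatment. JUN fell by 0.22 ± 0.05 in vehicle (adjusted p = 0.00983), and under erastin the difference of −0.15 ± 0.05 was not called (adjusted p = 0.0613). The other 3 probe sets gave −0.08, −0.30 and −0.32 in vehicle and −0.09, −0.16 and −0.16 under erastin. The −0.30 and −0.32 were called among all probe sets (adjusted p = 0.0359 and 0.00344), and the other 4 values were not. The brightest is of a type that Affymetrix marks with an x because some of its probes may match other sequences. All 8 values of the 4 probe sets were below 0.

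JUNB, an AP-1 subunit that is a weaker activator than JUN and can counter it, had 1 probe set (201473_at). It read 7.96, 7.96 and 7.90 on siTAZ erastin arrays, against 8.37, 8.09 and 8.09 on siNT erastin arrays. In vehicle the siTAZ values were 8.10, 8.08 and 8.16, against 8.27, 8.13 and 8.19 with siNT. The groups were separate under erastin and overlapped in vehicle. JUNB fell by 0.24 ± 0.07 under erastin (adjusted p = 0.0288), whereas the vehicle difference of −0.09 ± 0.07 was not called (95% interval −0.25 to 0.08). Without siNT erastin replicate 1, its highest array, the value was −0.15 and not called (adjusted p = 0.0978). The call was also lost without any 1 of siTAZ erastin replicates 1, 2 and 3, with values of −0.25, −0.25 and −0.22.

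JUND encodes the JUN family subunit that is present in resting cells and slows proliferation in several cell types. Its brightest probe set (203752_s_at) read 10.56, 10.66 and 10.56 on siTAZ vehicle arrays, against 10.23, 10.24 and 10.20 on siNT vehicle arrays. Under erastin the siTAZ values were 10.57, 10.51 and 10.59, against 10.26, 10.32 and 10.37 with siNT. Every siTAZ array was above every siNT array. JUND rose by 0.37 ± 0.05 in vehicle (adjusted p = 0.000178) and by 0.24 ± 0.05 under erastin (adjusted p = 0.00382). Its other 2 probe sets, also of the x type, were dim, with group means of 4.19 to 4.51 and 3.87 to 4.03, and none of their 4 siTAZ differences, −0.03 to 0.13, was called. With the mean of all 3 probe sets JUND was 0.13 in vehicle and 0.15 under erastin and not called.

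**Figure D2:**
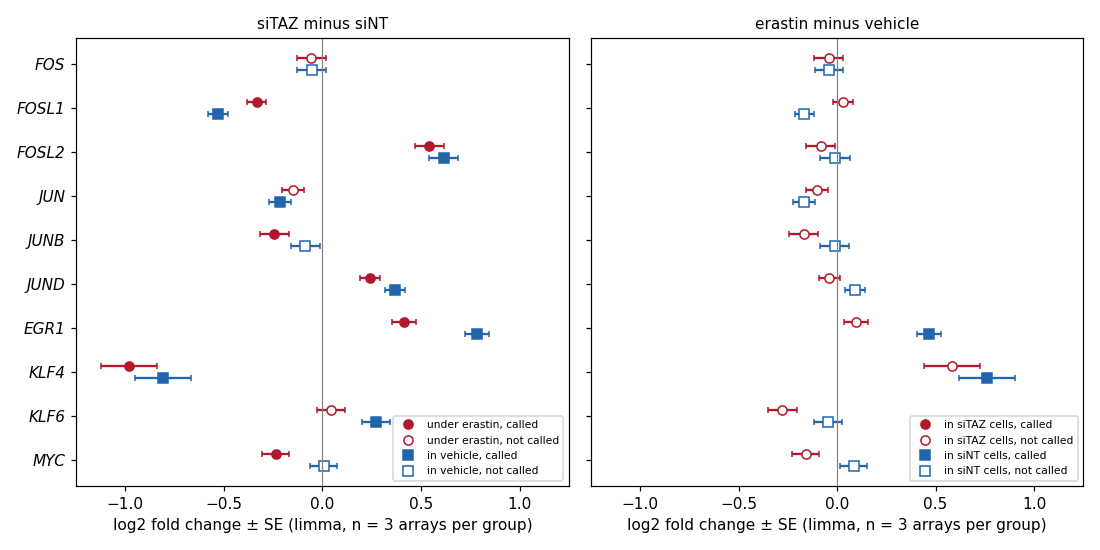
Log2 fold change ± SE (x axis) of the 10 genes (rows), with siTAZ minus siNT on the left (circles under erastin, squares in vehicle) and erastin minus vehicle on the right (circles in siTAZ cells, squares in siNT cells); filled symbols passed an adjusted p under 0.05 in limma. EGR1 (0.79 and 0.42) and FOSL2 (0.61 and 0.54) lie farthest to the right and KLF4 (−0.81 and −0.98) farthest to the left for siTAZ in vehicle and under erastin, and only EGR1 (0.47) and KLF4 (0.76) are filled for erastin, both in siNT cells.

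EGR1, the zinc finger factor whose promoter is shown above, had the largest rise of the 10 in vehicle (201694_s_at). It read 8.79, 8.76 and 8.83 on siTAZ vehicle arrays, against 8.0, 8.02 and 8.01 on siNT vehicle arrays. It read 8.79, 8.87 and 9.01 on siTAZ erastin arrays, against 8.54, 8.42 and 8.46 on siNT erastin arrays. The siTAZ groups were both above all siNT arrays, and siNT erastin was separate from siNT vehicle. EGR1 rose by 0.79 ± 0.06 in vehicle, 1.72-fold (adjusted p = 1.68e-06), which was rank 199 of 11963 by size of rise. Under erastin it rose by 0.42 ± 0.06, 1.33-fold (adjusted p = 0.000269). A dimmer second probe set, with group means of 5.17 to 5.53, gave 0.36 ± 0.14 and 0.09 ± 0.14, neither called (adjusted p = 0.0866 and 0.728).

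KLF4, a Kruppel-like factor that restrains proliferation in many epithelia and is one of the reprogramming factors, had the largest fall. On siTAZ vehicle arrays its brightest probe set (221841_s_at) read 6.29, 6.73 and 6.29, against 7.24, 7.32 and 7.17 on siNT vehicle arrays. Under erastin the siTAZ values were 7.15, 6.83 and 7.08, against 7.98, 7.76 and 8.27 with siNT. All 4 groups were separate from their neighbours, from high to low in the order siNT erastin, siNT vehicle, siTAZ erastin and siTAZ vehicle. KLF4 fell by 0.81 ± 0.14 in vehicle, 1.75-fold (adjusted p = 0.000967), rank 102 of 11963 by size of fall. Under erastin it fell by 0.98 ± 0.14, 1.98-fold (adjusted p = 0.00024), rank 64. A second probe set near 4.5 gave −0.26 and −0.25 (± 0.16 each), neither called.

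KLF6, a Kruppel-like factor studied as a tumour suppressor, was brightest on 208961_s_at, which read 10.60, 10.48 and 10.52 on siTAZ vehicle arrays, against 10.36, 10.28 and 10.13 on siNT vehicle arrays. Under erastin the siTAZ values were 10.27, 10.23 and 10.26, against 10.10, 10.20 and 10.33 with siNT. The siTAZ vehicle arrays stood above the other 9, and the remaining groups overlapped. KLF6 rose by 0.27 ± 0.07 in vehicle (adjusted p = 0.012), and under erastin the difference was 0.04 ± 0.07 (95% interval −0.11 to 0.20). KLF6 was not called when siNT vehicle replicate 3 was left out (0.21, adjusted p = 0.0512). The same held for siTAZ vehicle replicate 1 (0.24, adjusted p = 0.052) and for the mean of its 3 probe sets (0.29, adjusted p = 0.0841). One of those probe sets varied widely between arrays, from 7.63 to 9.25, and gave 0.61 ± 0.28 in vehicle and −0.42 ± 0.28 under erastin, neither called, and the dimmest gave −0.01 and 0.10.

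MYC, the growth-promoting factor that pairs with MAX at E-boxes, had 1 probe set (202431_s_at), which read 10.80, 10.68 and 10.79 on siTAZ erastin arrays, against 10.92, 11.00 and 11.06 on siNT erastin arrays. In vehicle the siTAZ values were 10.90, 10.89 and 10.96, against 10.99, 10.99 and 10.76 with siNT. The groups were separate under erastin and overlapped in vehicle. MYC fell by 0.24 ± 0.07 under erastin (adjusted p = 0.0239), while in vehicle the difference was 0.01 ± 0.07 (95% interval −0.15 to 0.16). With the actin signal as a covariate the difference under erastin was −0.09 ± 0.08 (adjusted p = 0.479). It was also not called without siNT erastin replicate 2 (−0.23), siNT erastin replicate 3 (−0.20) or siTAZ erastin replicate 2 (−0.20).

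The other 6 members called under erastin kept their calls with the actin covariate. Their changes with it were −0.36 for FOSL1, 0.53 for FOSL2, −0.35 for JUNB, 0.32 for JUND, 0.38 for EGR1 and −0.68 for KLF4. KLF6, at 0.22 (adjusted p = 0.0669), and JUN, at −0.08, were not called.

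**Figure D3:**
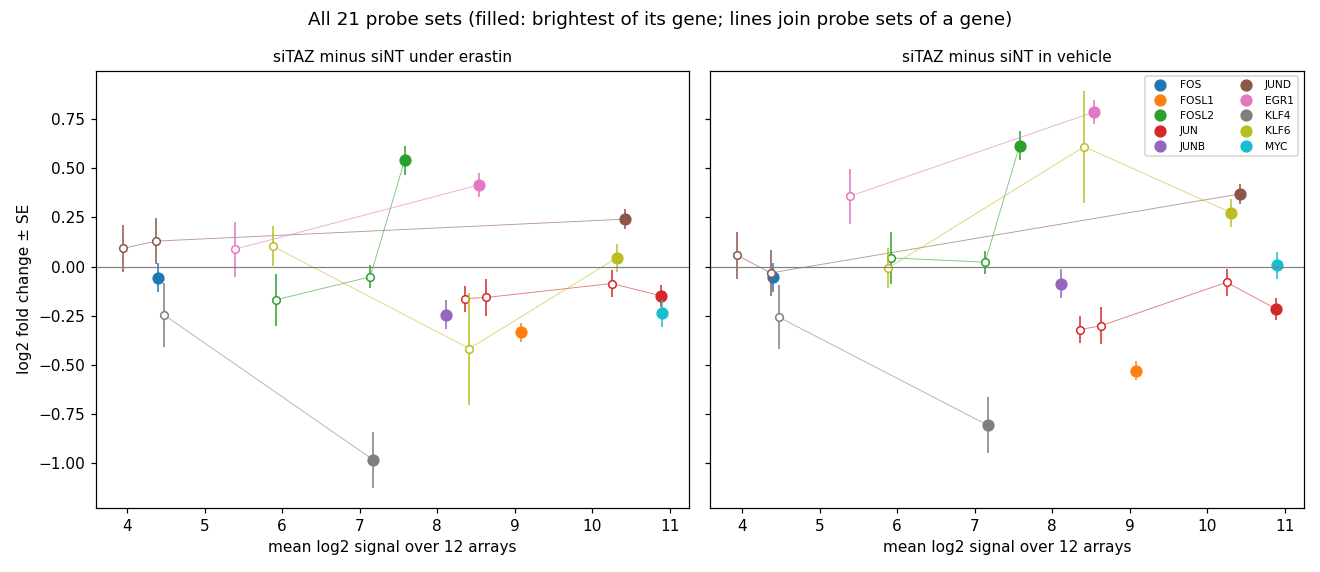
Log2 fold change ± SE of siTAZ against siNT (y axis) for all 21 probe sets by their mean log2 signal over 12 arrays (x axis), under erastin on the left and in vehicle on the right; filled points are the brightest probe set of a gene and thin lines join the probe sets of 1 gene. The FOSL2 probe sets differ (0.61, 0.02 and 0.04 in vehicle), the 4 JUN probe sets lie below 0 in both panels, and the dim second probe sets of KLF4 (−0.26) and EGR1 (0.36) lie nearer 0 than the brightest.

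The next question is how the members respond to erastin itself, read only at 7 hours. A change that came and passed earlier would not be seen. In siNT cells EGR1 and KLF4 rose and none fell, and 0.802% of all genes were called, 0.527% upward and 0.276% downward. EGR1 rose by 0.47 ± 0.06, 1.38-fold (adjusted p = 0.00336), rank 35 of 11963. KLF4 rose by 0.76 ± 0.14, 1.69-fold (adjusted p = 0.0331), rank 9 by size. KLF4 was no longer called in 7 of the 12 fits that left out 1 array. These left out siNT erastin replicate 1 (0.77) or 3 (0.63), siNT vehicle replicate 1 (0.76), 2 (0.80) or 3 (0.72), and siTAZ erastin replicate 1 or 3 (0.76 each). It was also lost with the actin covariate, at 0.63 ± 0.13 (adjusted p = 0.0594), and with the mean of both its probe sets, at 0.47. With the mean of both EGR1 probe sets the change was 0.35 and not called (adjusted p = 0.084). With only the siNT arrays in the fit, neither EGR1 (adjusted p = 0.0502) nor KLF4 (adjusted p = 0.102) was called. The other 8 members ran from −0.17 for JUN and FOSL1 to 0.09 for JUND. JUN was lower on all 3 erastin arrays than on the 3 vehicle arrays (adjusted p = 0.264), as was FOSL1 (adjusted p = 0.204).

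In siTAZ cells none of the 10 was called for erastin by limma at an adjusted p under 0.05, where 0.56% of all genes were called, 0.46% upward and 0.1% downward. At an unadjusted p under 0.05, 4 of the 10 passed, beside 1220 genes (10.2%) of all. EGR1 changed by 0.10 ± 0.06 and its groups overlapped (95% interval −0.04 to 0.23). KLF4 was higher on all 3 erastin arrays than on the 3 vehicle arrays, by 0.58 ± 0.14 (adjusted p = 0.135). KLF6 was lower on all 3 erastin arrays, with a difference of −0.28 ± 0.07 (adjusted p = 0.157). The remaining members ran from −0.17 for JUNB to 0.03 for FOSL1. Groups did not overlap for 5 of the 10 genes in siNT cells and for 5 in siTAZ cells, where 14.4% and 20.7% of all genes had groups that did not overlap.

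Whether the erastin response differed between siTAZ and siNT cells was tested as the interaction. None of the 10 was called, and none of the 11963 genes in limma, although 764 genes (6.39%) and 4 members had an unadjusted p under 0.05. With the trend option of limma 11 genes were called, none of them a member. The largest member difference was that of EGR1, at −0.37 ± 0.09 (95% interval −0.56 to −0.18), with an unadjusted p of 0.00107 and an adjusted p of 0.614. The others with an unadjusted p under 0.05 were MYC at −0.24 ± 0.10, KLF6 at −0.23 ± 0.10 and FOSL1 at 0.20 ± 0.07. A call with 1 treatment and not the other, as for JUN, JUNB, KLF6 and MYC, is therefore not shown to be a difference between them.

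Genes around the members were counted from lists named in the methods. The lists were chosen with earlier results of these data known, so a lean of a list is not independent support. These counts stand beside all genes, of which 14.7% rose and 13.9% fell with siTAZ in vehicle, and 15.6% and 12.6% under erastin. With erastin 0.802% of all genes were called in siNT cells and 0.56% in siTAZ cells. Of 27 other immediate early genes measured, 6 rose and 9 fell with siTAZ in vehicle (median −0.05), and 5 rose and 10 fell under erastin (median −0.11). MAFF, a small MAF factor, fell by 1.41 ± 0.06 in vehicle and by 1.49 ± 0.06 under erastin, as did GADD45B, a stress-induced growth arrest gene (−0.74 and −0.79). TRIB1, a pseudokinase gene, rose by 1.33 ± 0.06 and 1.19 ± 0.06, and ID3, an inhibitor of helix-loop-helix factors, by 1.04 and 1.02. With erastin ATF3, a stress-induced AP-1 partner, rose in siTAZ (0.49) and siNT cells (0.77), and in siNT cells TRIB1 rose (0.34) and IER5 fell (−0.31).

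The other AP-1 and small MAF factors overlap that list in ATF3, FOSB and MAFF. Of 9 measured, 2 rose and 1 fell with siTAZ in vehicle, namely MAF (1.16), ATF3 (0.26) and MAFF, and under erastin MAF (0.75) rose and MAFF fell. These siTAZ counts are near the 28.6% and 28.2% of all genes called either way. With erastin in siNT cells MAF also rose (0.52). Among 19 genes known as AP-1 targets, 1 rose and 13 fell in vehicle (median −0.32), and 2 rose and 12 fell under erastin (median −0.26). In vehicle and under erastin F3, the tissue factor gene, fell (−1.50 and −1.59), as did IL6, the interleukin 6 gene (−0.93 and −0.79), and HMOX1, the haem oxygenase gene (−0.83 and −1.03). VEGFA, the vascular growth factor gene (−0.71 and −0.54), and CXCL8, the interleukin 8 gene (−0.35 and −0.87), fell as well. ITGA5, the fibronectin receptor subunit gene, rose by 0.36 and 0.33, and MMP9, a gelatinase gene, rose by 0.29 under erastin. With erastin, HMOX1 rose in siTAZ (0.49) and siNT cells (0.69), HBEGF fell in both (−0.41 and −0.46), PLAUR fell in both (−0.28 and −0.46), and CXCL8 fell in siTAZ cells (−0.41). The activity of AP-1 was not measured.

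Upstream of EGR1 and FOS stand SRF, which binds the CArG box, and its ternary complex partners. The list counted here also held the SRF coactivators MRTFA and MRTFB and the EGR1 corepressors NAB1 and NAB2. Of its 8 genes 4 rose and 3 fell with siTAZ under either treatment (median 0.04 in vehicle and 0.14 under erastin). SRF fell by 0.40 ± 0.07 in vehicle and by 0.28 ± 0.07 under erastin, as did ELK3 (−0.37 and −0.38) and ELK1 (−0.19 and −0.17), both ternary complex factors. NAB1, a corepressor of EGR1, rose by 0.37 and 0.39, and MRTFB, an SRF coactivator, by 0.35 and 0.30. Of 10 genes of ERK feedback 3 fell and none rose in vehicle, and 5 fell and 1 rose under erastin. The vehicle count is near the 28.6% of all genes called either way. PHLDA1 fell (−0.50 and −0.59), as did DUSP6, the ERK phosphatase gene (−0.44 and −0.47), and DUSP5 (−0.29 and −0.55), while DUSP4 rose by 0.35 under erastin. No gene of these 2 groups was called with erastin in siNT or siTAZ cells.

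Of 12 other Kruppel-like factors measured, KLF5 rose (0.37 in vehicle and 0.53 under erastin), KLF2 fell (−0.37 and −0.30) and KLF7 fell (−0.21 and −0.21), and the other 9 were not called under either treatment. Among 11 partners in the MYC network, MNT, a repressor that competes for MAX, rose by 0.32 in vehicle and 0.39 under erastin, and MAX (0.19) rose and MLXIP (−0.33) fell under erastin. MNT also rose with erastin in siTAZ cells (0.27). The siTAZ calls of the Kruppel-like and MYC partner lists did not exceed the share of all genes called, 28.6% in vehicle and 28.2% under erastin. Of 21 genes known as MYC targets 1 rose and 11 fell in vehicle (median −0.24), where MYC itself was at 0.01, and 1 rose and 9 fell under erastin (median −0.16). NOP16, a nucleolar protein gene, fell (−0.50 and −0.39), as did PPRC1, a coactivator of mitochondrial genes (−0.49 and −0.46), and CDK4, the cyclin D kinase gene (−0.39 and −0.38). CCND2, the cyclin D2 gene, rose by 1.17 and 0.84. None of the 21 was called with erastin.

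**Figure D4:**
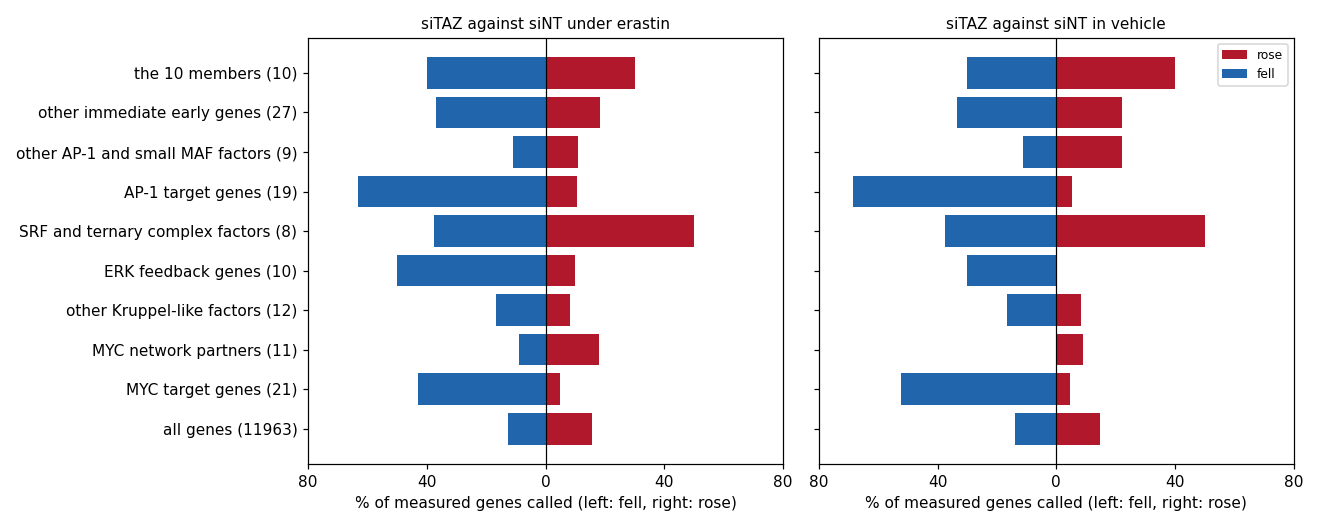
Percent of the measured genes of each list that fell (bars to the left) or rose (bars to the right) with siTAZ against siNT, under erastin on the left and in vehicle on the right; the number of measured genes is in brackets. The AP-1 and MYC target lists lean to the left (13 of 19 and 11 of 21 fell in vehicle), while the 10 members have 4 rises and 3 falls in vehicle, beside 14.7% and 13.9% of all genes. The lists were chosen with earlier results of these data known.

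The genes most like each called member were found as the smallest root mean square difference between centred log2 signals over the 12 arrays. For KLF4 they were HMOX1, at 0.14, and CEBPB, at 0.20, where KLF4 itself had an SD of 0.61 over the arrays. HMOX1 averaged 9.81 on siTAZ erastin, 9.32 on siTAZ vehicle, 10.84 on siNT erastin and 10.15 on siNT vehicle arrays, which is the order of groups seen for KLF4. For EGR1 they were CFI and AKR1C1, both at 0.07, with siTAZ changes in vehicle of 0.80 and 0.74. For FOSL1 they were SYDE1 and STC1, both at 0.04, which differed by −0.48 and −0.54 with siTAZ in vehicle. FOSL2 was nearest to GALNS (0.05) and P4HTM (0.06), JUND to IDH2 and TTC28 (both 0.04), and KLF6 to DUSP1 and TDP2 (both 0.06). DUSP1, which encodes a phosphatase of MAP kinases, rose by 0.38 ± 0.07 in vehicle and was at 0.11 ± 0.07 under erastin. For JUN, JUNB and MYC, whose SDs over the arrays were only 0.12 to 0.13, the nearest genes were BMAL2 and UAP1, PLK2 and CAV1, and PCBP2 and TRMO. These are likenesses of level patterns over the same 12 arrays and carry no test.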

How the data were processed

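The authors deposited log2 probe set signals of 12 arrays, which were used unchanged. The submitters' processing notes name RMA and Affymetrix Expression Console, with no version or genome build. The series' design text also describes a comparison of siTAZ values with the siNT average. The deposited values do not look like differences from that average, since siNT arrays have medians like the others, but whether any other step was applied is not stated. Values ran from 2.02 to 14.4, with array medians of 6.48 to 6.54. Precision is limited by how many arrays there are, and the p-values measure the spread between these arrays, which may be technical.

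From 22277 probe sets, those for controls (62), those matching more than 1 gene (1043) and those with no gene named in GEO's platform annotation (2108) were dropped. The brightest of each gene's probe sets stood for it. All groups entered 1 fit of group means in limma 3.58.1 (R 4.3.3), with 5 comparisons. Other probe sets were adjusted over all 19064. The fit was run on simulated data with independent noise, where 100 genes changed by 0.5 and 100 by 1, in either direction. It recovered 82% to 93% of the former and 100% of the latter. Of its calls 3.09% to 5.53% were false. Far fewer genes changed there than siTAZ called here, and changes under 0.5 were not tried.

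The members and lists were chosen with earlier results of these data known. The lists were other immediate early genes, other AP-1 and small MAF factors, AP-1 targets, SRF and ternary complex factors, ERK feedback, other Kruppel-like factors, MYC partners, MYC targets and cell markers. The text names all members, WWTR1, up to 4 genes per list and comparison with the largest called change, all of a direction with 3 or fewer calls, and the 2 genes nearest to each called member. The alternatives were other scalings, filters, probe set rules, variance models, array weights, a replicate block, an actin covariate, a minimum fold change and leaving out each array.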

Additional observations from a re-analysis of the deposited data

How the results depend on the processing

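No called change of a member changed sign under the alternatives run. FOS, at both percentile filters, and KLF4, at the 50th, were too dim to be tested. In vehicle 5 of the 7 siTAZ calls of members held under every alternative in which they were tested, other than the minimum fold change, and under erastin 3 of 7 (FOSL1, EGR1 and KLF4). JUN under erastin was called with median centring, both filters, both trend settings and array weights (−0.13 to −0.16), and JUN also passed for erastin in siNT cells with array weights (−0.20). FOSL1 passed there as a fall (−0.17, adjusted p = 0.0498) without genes under the 50th percentile. KLF4 and KLF6 passed for erastin in siTAZ cells with the trend setting (0.58 and −0.28, adjusted p = 0.0199 each). With a log2 change of at least 0.5 in addition, siTAZ called 888 genes and 4 members in vehicle, 878 and 2 under erastin, and erastin 28 genes and 1 member in siNT and 26 genes in siTAZ cells.

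Erastin calls in siNT cells (96 genes, 2 members) numbered 222 without genes under the 50th percentile, 59 with every probe set on its own, 181 with the trend, 186 with trend and robust, 324 with array weights and 15 with only the groups compared; members called were 0 with only the groups compared or the mean of all probe sets, and 1 with the actin covariate. In siTAZ cells (67 genes, 0 members) they numbered 157, 163, 164 and 166 under that filter, the trend, trend and robust, and array weights, with 1, 2, 2 and 1 members. The interaction called 3 genes with median centring, the second quantile normalisation, the 25th percentile filter or array weights, 8 with the 50th percentile filter, 11 with the trend and 10 with trend and robust, with no member among them. Without 1 array, erastin calls were 30 to 79 in siNT cells (1 to 2 members) and 30 to 81 in siTAZ cells, and the interaction 0 to 1.

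Replicate numbers did not pair the arrays: same-numbered arrays deviated together at r of −0.42 to 0.36, over 0.1 in 4 of 18 pairs, and 3 of 12 arrays correlated best with their own number. With the replicate block, erastin called 39 genes and 1 member in siNT and 34 genes in siTAZ cells, and KLF4 in siNT cells lost its call (adjusted p = 0.0961); no other member changed its call. The cause of these shifts was not tested. Signal limits FOS and the second probe sets of JUND and KLF4, which are about as dim as the median markers of other cell types.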
